A study of Mus musculus with 26 samples.

Results

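Expression of 10 transcription factors that govern the step from the basal to the differentiated keratinocyte was followed in primary mouse keratinocytes. The genes were *Trp63*, *Klf4*, *Grhl1*, *Grhl3*, *Ovol1*, *Zfp750*, *Prdm1*, *Cebpa*, *Cebpb* and *Gata3*, taken by symbol from a table of counts for 56738 gene symbols. All 10 were among the 16893 genes tested. Keratinocytes came from 2-day-old wild-type (WT, 5 mice) and *Pla2g4d*-deficient (KO, 8 mice) C57BL/6NJ neonates and were kept for 4 days in a growth-supplemented medium with 0.06 mM CaCl2, a concentration that favours proliferation over stratification. The cells of each mouse gave a basal library and a library of cells treated for 24 h with IL17A and TNFα, each at 20 ng/ml, which makes 26 libraries in 4 groups. The KO line carries a CRISPR-Cas9 deletion around exon 3 of *Pla2g4d* in every cell of the body, was crossed back to C57BL/6NJ and was then bred as homozygotes. The line thus stands for a single mutant allele, whose deleted stretch is missing from the keratinocytes and from the other tissues of the pups.

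In the epidermis, basal cells divide on the basement membrane, and cells that leave it pass through spinous and granular layers before they form the cornified envelope. p63, encoded by *Trp63*, maintains the basal compartment and the identity of stratified epithelia, and the other factors act on or after the exit from the basal layer. IL17A and TNFα are inflammatory cytokines of psoriasis, a disease in which epidermal differentiation is altered.

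Total counts per library ranged from 42072745 to 78102858, so counting error was small for these genes and the spread between mice set the precision. Levels are given as CPM, the count relative to the library size after normalization by TMM. The summed level of 23 basal layer genes was between 45010 and 59764 CPM, and that of 55 suprabasal and cornified envelope genes between 8667 and 21965 CPM. RNA of both lists was thus present in every library. The second sum pools genes that rose with cytokines, such as *Sprr2e*, and genes that fell, such as *Krt10* (values below). Melanocyte markers were also present (8 genes, 316 to 657 CPM summed), whereas 10 fibroblast markers summed to 2.85 to 9.88 CPM and 6 endothelial markers to 1.37 to 5.96 CPM, with *Emcn* and *Cldn5* at 0 in all 26 libraries. The 12 immune cell markers summed to 21.0 to 56.4 CPM, mostly from *Cd68* and *Lyz2*, while *Cd3g* and *Cd207* were at 0 in all 26 libraries. *Pla2g4d* counts include the exons outside the deletion and therefore check the genotype labels only weakly. The *Pla2g4d* level of basal cells was 3.35 ± 1.36 CPM in the 5 WT mice and 2.06 ± 0.716 CPM (both SD) in the 8 KO mice. By the edgeR test and thresholds given below, *Pla2g4d* was called lower in basal KO cells (log2 -0.70, SE 0.26, adjusted p = 0.0935). With cytokines its level was 52.2 ± 14.9 and 38.1 ± 9.55 CPM, a genotype difference that did not pass (log2 -0.45, SE 0.23, adjusted p = 0.345).

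A gene is said here to have risen or fallen where its adjusted p was under 0.1 (edgeR quasi-likelihood test, Benjamini-Hochberg over all 16893 genes). It is said to be called differentially expressed where its fold change was also over 1.5, the pair of thresholds that the study applied. Log2 fold changes are given with their standard errors (SE). RNA from whole wells cannot tell fewer cells of a type from less RNA per cell.

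Per kilobase of exon, *Cebpb* was the most highly expressed of the 10 factors and *Prdm1* the lowest in basal cells. In WT basal cells the mean levels per length were 102 CPM per kb for *Cebpb*, 60.8 for *Klf4*, 52.0 for *Cebpa*, 44.3 for *Trp63*, 31.0 for *Zfp750*, 20.6 for *Ovol1*, 14.1 for *Grhl3*, 11.8 for *Gata3*, 10.4 for *Grhl1* and 8.51 for *Prdm1*. Neighbours in this order were close: *Klf4*, *Cebpa* and *Trp63* lay between 44.3 and 60.8 CPM per kb, and *Gata3*, *Grhl1* and *Prdm1* between 8.51 and 11.8, and the order of neighbours was not tested. With cytokines, *Prdm1* stood at 21.6 CPM per kb in WT and 18.8 in KO cells, rank 8 of 10 in both, and *Grhl3* moved from rank 7 to rank 5 in both genotypes. The genes are spread over 8 chromosomes of GRCm39, among them *Prdm1* at chr10:44313171-44404497 (minus strand), *Grhl3* at chr4:135268329-135300992 (minus strand), *Trp63* at chr16:25502513-25710852 (plus strand) and the single-exon gene *Cebpb* at chr2:167530835-167532338 (plus strand). Exon lengths are unions over all annotated transcripts, 15.719 kb for *Grhl1* and 1.504 kb for *Cebpb*, so a gene with long exons that these cells do not use is placed too low.

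The 5′ flanks of 4 factors are shown because they are the factors with the largest rises with cytokines (*Prdm1*, *Grhl3* and *Cebpb*) and *Grhl1*, the close relative of *Grhl3* that moved the other way. The sequences are RefSeq promoters, each found once in GRCm39 and cut short of the exon that follows its own RefSeq start. They lie at chr10:44334781-44334930 on the minus strand (*Prdm1*, inside the longest annotated gene model), chr4:135300993-135301142 on the minus strand (*Grhl3*), chr2:167530685-167530834 on the plus strand (*Cebpb*) and chr12:24622047-24622196 on the plus strand (*Grhl1*). In *Prdm1* the capitals mark TGAATCA, a match to a loose AP-1 pattern (TGANTCA, any base at N). They mark a CCAAT box, on either strand, in *Grhl3* and *Grhl1*, and nothing in *Cebpb*.
Prdm1: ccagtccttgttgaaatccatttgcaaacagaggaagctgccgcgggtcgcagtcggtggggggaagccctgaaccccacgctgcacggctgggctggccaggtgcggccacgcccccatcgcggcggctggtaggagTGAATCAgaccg
Grhl3: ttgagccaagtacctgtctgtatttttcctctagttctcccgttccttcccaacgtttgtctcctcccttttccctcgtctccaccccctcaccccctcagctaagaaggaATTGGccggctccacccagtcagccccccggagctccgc
Cebpb: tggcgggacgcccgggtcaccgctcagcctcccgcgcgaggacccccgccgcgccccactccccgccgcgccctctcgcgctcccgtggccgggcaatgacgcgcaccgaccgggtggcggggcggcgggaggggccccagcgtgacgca
Grhl1: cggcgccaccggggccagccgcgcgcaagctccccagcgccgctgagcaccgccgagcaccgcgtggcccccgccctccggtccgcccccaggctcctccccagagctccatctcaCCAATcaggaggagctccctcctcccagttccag

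RefSeq promoters were matched for 7 of the 10 factors (8 promoters, since *Grhl1* has 2). Motifs were searched on both strands of the 250 bases before each start. The loose AP-1 pattern TGANTCA, with any base at N, was found in 1 of the 8 promoters, that of *Prdm1*. It was found in 6.75% of 32841 promoters of the same length. A CCAAT box stood in 3 of 8, against 33.9% of all promoters, and a GC box (GGGCGG) in 5 of 8, against 32.7%. Letters for C/EBP (TTGCNNAA, 9.57% of all promoters), GRHL (AACCNGTT, 1.79%) and GATA (GATAA, 22.6%) and the consensus motifs of NF-kB (7.25%) and of the p53 family (7.13%) were in none of the 8 windows. TATAAA was found in that of *Cebpa* and in 12.4% of all. A match in such a window is a description and no evidence of binding.

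IL17A and TNFα raised 2 of the 10 factors past both thresholds in WT cells, *Prdm1* and *Grhl3*, and the same 2 in KO cells. Both genes are known for promoting late differentiation, *Prdm1* as a repressor and *Grhl3* as an activator, and no factor was called lower. In all tested genes 13.9% were called in WT cells (8.65% higher, 5.26% lower) and 10.9% in KO cells (6.33% higher, 4.55% lower), so that 2 of 10 is not far above the share in all genes. By adjusted p alone, 3 factors rose and 2 fell in WT cells and 4 rose and 3 fell in KO cells, against 36.8% and 35.8% of all genes. The median log2 fold change of the 10 was 0.02 in WT (0.01 over all genes) and -0.01 in KO cells (0.0046 over all genes).

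**Figure D1:**
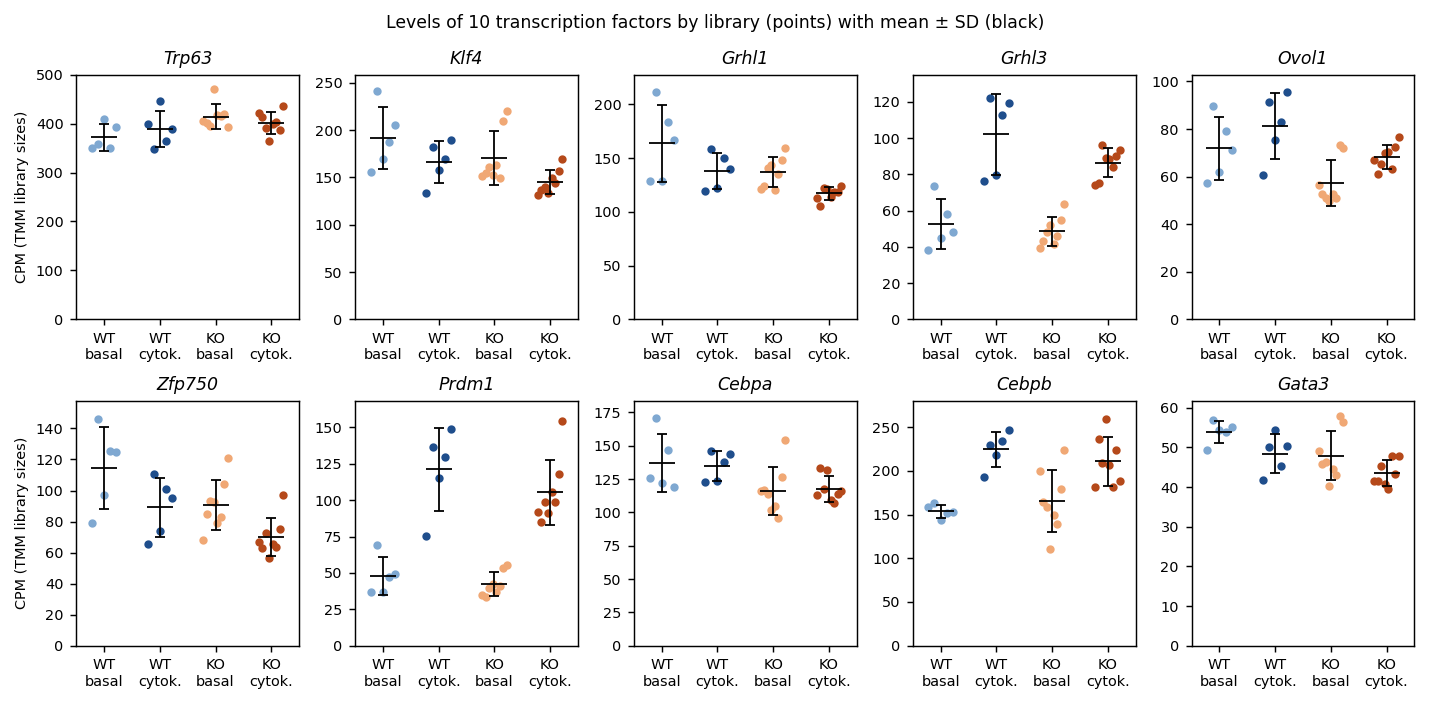
Level of each of the 10 factors (CPM, linear axis from 0) in every library of the 4 groups, WT and KO, basal or with cytokines (cytok.); points are libraries, black lines the mean and SD. *Prdm1* and *Grhl3* libraries with cytokines all lie above the basal libraries of their genotype, while *Trp63* stays between 349 and 470 CPM.

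*Prdm1*, which encodes the repressor Blimp1 needed for the terminal steps of the granular layer, had the largest change of the 10 factors. In WT basal cells it was at 36.7, 69.1, 36.6, 47.0 and 49.4 CPM in replicates 1 to 5, and with cytokines at 75.3, 136, 115, 130 and 149 CPM. In KO cells the lowest, median and highest levels were 33.7, 40.3 and 55.6 CPM without and 84.8, 98.7 and 154 CPM with cytokines. No treated library of either genotype overlapped with the basal libraries, and the cells of all 13 mice moved up. The log2 fold change was 1.34 (SE 0.18, adjusted p = 8.47e-07) in WT and 1.32 (SE 0.14, adjusted p = 1.66e-08) in KO cells, which is a 2.54-fold and a 2.50-fold rise.

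*Grhl3*, a grainyhead factor required for the skin barrier, was at 38.3, 73.4, 44.9, 58.4 and 48.5 CPM in WT basal replicates 1 to 5. With cytokines the same mice gave 76.5, 122, 79.6, 113 and 120 CPM. In KO cells the lowest, median and highest levels were 39.6, 47.1 and 63.5 CPM without and 74.4, 88.9 and 96.1 CPM with cytokines. Treated and basal libraries were again apart in both genotypes, by a narrower gap than for *Prdm1*. *Grhl3* rose 1.94-fold in WT (log2 0.95, SE 0.15, adjusted p = 6.85e-06) and 1.78-fold in KO cells (log2 0.83, SE 0.12, adjusted p = 1.49e-06).

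*Cebpb*, a leucine zipper factor that promotes the exit from the basal layer and also serves in inflammatory responses, was the third factor that rose in both genotypes. WT basal replicates 1 to 5 had 158, 163, 144, 151 and 152 CPM, and with cytokines 193, 230, 218, 234 and 247 CPM. The WT groups were apart. In KO cells the lowest, median and highest levels were 110, 161 and 224 CPM without and 181, 208 and 259 CPM with cytokines, which overlapped, and 6 of 8 mice moved up. The 1.46-fold rise in WT (log2 0.55, SE 0.12, adjusted p = 0.000924) stayed under the fold threshold, which it passed only without WT replicate 1 (log2 0.59), and the rise in KO cells was 1.27-fold (log2 0.35, SE 0.10, adjusted p = 0.00639). A share of 20.7% of the exon of *Cebpb* lies opposite to an exon of *Peds1*, and the strand setting of the counting was not given, so reads of both genes may not have been told apart. Groups without overlap were found for 3 of the 10 factors in WT and 2 of 10 in KO cells, against 20.5% and 11.8% of all genes.

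*Ovol1*, a zinc finger repressor that restrains the growth of committed progenitors, was higher in treated than in basal cells of 5 of 5 WT mice and 7 of 8 KO mice. Mean basal and treated levels were 71.9 ± 13.1 and 81.1 ± 13.9 CPM in WT (SD, n = 5), and those of KO cells were 57.3 ± 9.59 and 68.3 ± 5.12 CPM (SD, n = 8). It rose by the adjusted p in KO (log2 0.25, SE 0.10, adjusted p = 0.048) and did not pass in WT cells (log2 0.17, SE 0.12, adjusted p = 0.305). The KO call was lost without KO replicate 3, 4 or 5 (adjusted p up to 0.122). Exons of 2 antisense RNAs lie opposite to 29.4% of its exon length, with the same doubt about strand as for *Cebpb*.

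A further 3 factors of the suprabasal programme moved down by a small amount, and in the cells of every mouse. *Zfp750*, a p63 target that drives terminal differentiation together with Klf4, was at 79.1, 146, 97.2, 125 and 125 CPM in WT basal replicates 1 to 5 and at 65.4, 111, 73.7, 101 and 95.1 CPM with cytokines. The KO libraries had a lowest, median and highest level of 68.0, 88.6 and 121 CPM without and 56.7, 66.2 and 97.1 CPM with cytokines. Treated and basal libraries overlapped widely, and the range between mice was wider than the change within most of them. The fall was -0.36 (SE 0.16, adjusted p = 0.0889) in WT and -0.37 (SE 0.13, adjusted p = 0.0253) in KO cells on the log2 scale. The WT call was lost without any one of WT replicates 2 to 5 or KO replicates 2, 3 or 5 (adjusted p up to 0.179).

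*Grhl1*, the grainyhead relative that regulates desmosomal cadherins, fell from 164 ± 35.8 to 138 ± 16.9 CPM (SD, n = 5) in WT cells (log2 -0.25, SE 0.10, adjusted p = 0.0706). In KO cells it fell from 137 ± 13.98 to 117 ± 5.88 CPM (SD, n = 8; log2 -0.22, SE 0.08, adjusted p = 0.0392). The WT call was lost without WT replicate 2, 4 or 5 (adjusted p up to 0.162). *Klf4*, a barrier factor of the upper layers, fell in KO cells from 170 ± 28.2 to 145 ± 12.9 CPM (SD, n = 8; log2 -0.23, SE 0.09, adjusted p = 0.0517), a call lost without KO replicate 7 (adjusted p = 0.119). In WT cells *Klf4* was at 192 ± 33.2 and 166 ± 21.98 CPM (SD, n = 5; log2 -0.20, SE 0.11, adjusted p = 0.192). *Zfp750*, *Grhl1* and *Klf4* were each lower with cytokines in the cells of 13 of 13 mice.

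The fits that left out 1 mouse each did not pair the libraries of a mouse. With the mouse as a block in the model, which removes the differences between mice, *Klf4* (adjusted p = 0.00494), *Ovol1* (0.0466) and *Gata3* (0.0635) also passed in WT cells and *Gata3* (0.0481) in KO cells. The adjusted p in WT cells was 0.000112 for *Zfp750* (log2 -0.35, SE 0.06) and 0.0011 for *Grhl1* (log2 -0.23, SE 0.05), lower than without the block. For *Cebpb* it was higher, 0.00206 in WT cells. Under this paired model 4 factors rose and 4 fell in each genotype, against 5 passing in WT cells and 7 in KO cells without the block. Over all genes 40.9% passed in WT and 39.3% in KO cells under the same model. The factors called at both thresholds stayed *Prdm1* and *Grhl3*.

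*Trp63*, *Cebpa* and *Gata3* did not pass in either genotype without the block. *Trp63* was at 372 ± 27.7 and 389 ± 37.2 CPM (SD, n = 5) in WT cells, basal and treated, and in KO cells at 414 ± 24.7 and 402 ± 22.5 CPM (SD, n = 8). For its log2 change the 95% interval was -0.05 to 0.19 in WT and -0.14 to 0.05 in KO cells. Counts per gene do not part the long and short (ΔN) forms of p63. *Cebpa*, a C/EBP factor of the suprabasal switch, had intervals of -0.22 to 0.17 and -0.14 to 0.18. *Gata3*, which acts in barrier lipid synthesis and the hair follicle, was at 53.9 ± 2.79 and 48.4 ± 4.86 CPM (SD, n = 5) in WT cells (log2 -0.15, SE 0.08, adjusted p = 0.171) and at 47.9 ± 6.20 and 43.5 ± 3.23 CPM (SD, n = 8) in KO cells (log2 -0.14, SE 0.07, adjusted p = 0.114). Antisense exons lie opposite to 6.66% of its exon length.

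**Figure D2:**
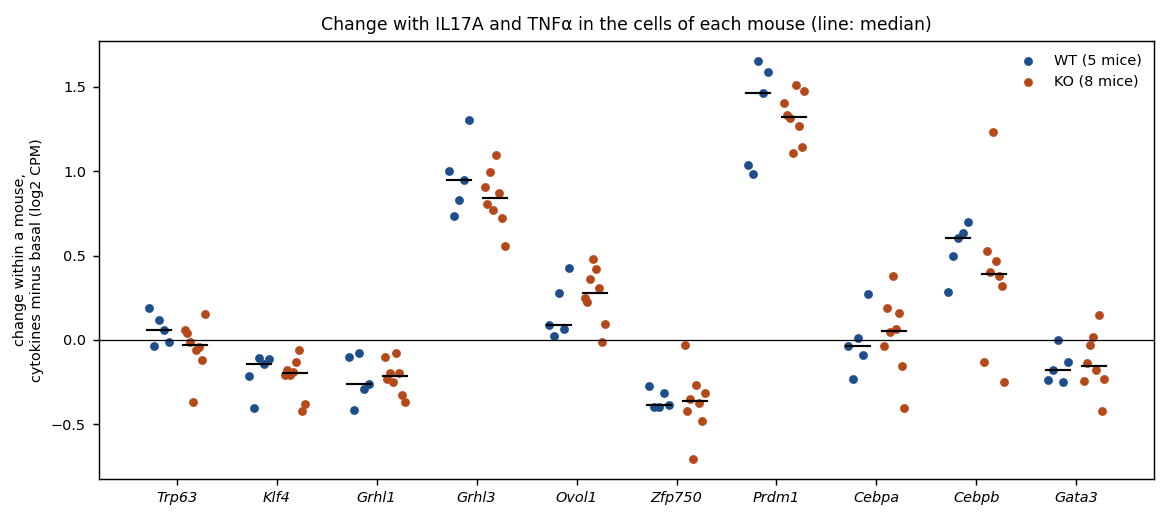
Change of each factor between the treated and the basal library of a mouse (log2 CPM, y axis) for 5 WT and 8 KO mice; lines are medians. *Prdm1* and *Grhl3* lie above 0 in all 13 mice and *Klf4*, *Grhl1* and *Zfp750* below 0 in all 13, while *Cebpb* in KO mice spreads from -0.25 to 1.23.

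The response did not differ detectably between genotypes for any of the 10. The interaction term (KO response minus WT response) passed for 0 of 10 factors, with 0 at an unadjusted p under 0.05 in edgeR and 0 by adjusted p in DESeq2, against 0.983% of all genes by adjusted p, 0.219% called at both thresholds and 9.13% at an unadjusted p under 0.05. The widest difference was that of *Cebpb*, -0.20 on the log2 scale (95% interval -0.50 to 0.11). For *Prdm1* the interval was -0.47 to 0.43 and for *Grhl3* -0.49 to 0.24. With the mouse as a block, which suits a contrast within mice, the intervals narrowed to -0.23 to 0.18 for *Prdm1* and -0.30 to 0.06 for *Grhl3*, and that of *Cebpb* was -0.49 to 0.14.

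Loss of *Pla2g4d* was accompanied by small differences in the factors, mostly towards lower levels in KO cells. Under basal conditions 8 of 10 were lower in KO than in WT cells, with a median log2 difference of -0.17 against 0.00038 over all genes, of which 49.9% were lower. With cytokines 9 of 10 were lower, with a median of -0.20 against -0.0078 over all genes, of which 52% were lower. Most of the factors varied together between mice, as described below, so the 10 are not separate observations in these counts. Melanocyte markers were lower too in treated KO cells, 5 of 8 by adjusted p with a median of -0.41 (0 of 8 and -0.06 under basal conditions). Over all genes 2.84% passed in treated and 13.6% in basal cells, in either direction. With cytokines 3 of 8 of these markers fell past both thresholds in WT and 5 of 8 in KO cells. Of all genes 5.26% and 4.55% fell past both. The part of the melanocyte markers in the differences of the factors was not tested. None of the 10 factors was called at both thresholds, where 2.68% of all genes were called under basal conditions and 0.704% with cytokines. WT and KO libraries overlapped for all 10 factors in both conditions, while 3.03% and 1.08% of all genes did not overlap.

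By adjusted p alone, 3 of 10 factors passed under basal conditions, against 13.6% of all genes. *Ovol1* fell in KO cells (log2 -0.33, SE 0.11, adjusted p = 0.0574), and 6 of its 8 KO libraries lay under the WT range. *Grhl1* fell as well (log2 -0.26, SE 0.09, adjusted p = 0.075), and 3 of its 8 KO libraries lay under the whole WT range. *Trp63* rose in KO cells (log2 0.16, SE 0.06, adjusted p = 0.0772), and 4 of its 8 KO libraries lay over the WT range. *Cebpa* lay just outside the threshold (log2 -0.24, SE 0.09, adjusted p = 0.102), with 6 of 8 KO libraries below the WT range. *Zfp750* was further off (log2 -0.34, SE 0.14, adjusted p = 0.146), with 2 of 8 below the WT range. *Gata3* (log2 -0.17, SE 0.07, adjusted p = 0.171) had 6 of 8 below and 1 above it. At an unadjusted p under 0.05 there were 6 factors (5 lower, 1 higher), where 22.4% of all genes were found.

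With cytokines 0 of 10 factors passed by adjusted p in edgeR and 0 in DESeq2, against 2.84% of all genes in edgeR, and 5 had an unadjusted p under 0.05, all lower in KO cells, where 15% of all genes were found. These were *Zfp750* (log2 -0.35, SE 0.14, adjusted p = 0.23), *Grhl1* (log2 -0.24, SE 0.09, adjusted p = 0.209), *Ovol1* (log2 -0.25, SE 0.11, adjusted p = 0.268), *Cebpa* (log2 -0.19, SE 0.09, adjusted p = 0.31) and *Gata3* (log2 -0.15, SE 0.08, adjusted p = 0.33). *Trp63* and *Cebpb* differed least in treated cells, with intervals of -0.06 to 0.16 and -0.31 to 0.13.

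Calls by adjusted p between genotypes depended on single mice, while the direction did not for most factors. With any 1 mouse left out, 7 or 8 of 10 factors were lower in basal KO cells and 9 of 10 with cytokines, and the basal log2 difference was between -0.40 and -0.23 for *Ovol1*, -0.34 and -0.15 for *Grhl1* and 0.12 and 0.19 for *Trp63*. Without WT replicate 1, whose differentiation factors were among the lowest of the WT mice, 5 factors were lower and 0 higher in basal KO cells by adjusted p, and 3 were lower with cytokines, where 19.2% and 12.2% of all genes passed in the same fit. Without KO replicate 8, which had the highest suprabasal level of the KO mice, 5 were lower and 1 was higher under basal conditions and 1 was lower with cytokines, where 15.9% and 6.64% of all genes passed. Without WT replicate 2 or 4, or KO replicate 5, 0 factors passed under basal conditions (9.83% to 10.9% of all genes). Without KO replicate 1, 2, 3 or 6, 1 passed (10.6% to 12.4% of all genes). *Ovol1* passed in 8, *Grhl1* in 5 and *Trp63* in 5 of the 13 fits that left out 1 mouse each. Litter, sex and sequencing batch of the mice were not given. The KO line was bred as homozygotes, so WT and KO pups came from different litters, which cannot be told apart from genotype. The part of sex and batch in the genotype difference was not tested.

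**Figure D3:**
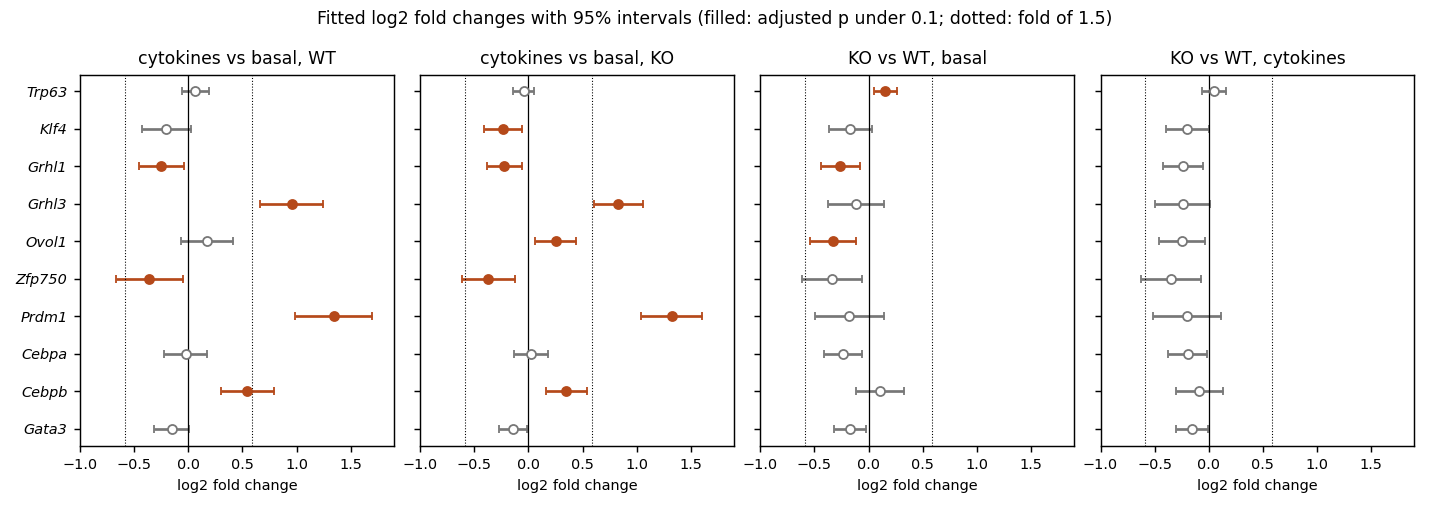
Fitted log2 fold changes (x axis) of the 10 factors with 95% intervals for the cytokine effect in WT and KO cells and the genotype effect without and with cytokines. Filled points have an adjusted p under 0.1 and dotted lines mark a fold of 1.5; only *Prdm1* and *Grhl3*, in both cytokine panels, lie beyond the dotted line, and the genotype panels stay within it.

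Mice of one genotype differed in the factors as a group. In WT basal cells, replicates 1 and 3 were lowest for *Klf4*, *Grhl1*, *Grhl3*, *Ovol1*, *Zfp750* and *Prdm1*, and replicate 2 was highest for each of these 6. To follow this spread, each factor was set against the mean log2 CPM of 54 suprabasal and cornified envelope genes (keratins of the spinous layer, envelope precursors, transglutaminases and others), both as deviations from the mean of the genotype, over 13 mice. The list mean ranged from 5.61 to 6.66 in WT and from 5.50 to 6.39 in KO basal libraries.

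Under basal conditions 8 of the 10 factors followed the suprabasal list from mouse to mouse, and *Trp63* and *Cebpb* did not pass. Pearson's r was 0.96 for *Klf4* (Spearman's rho 0.88, permutation p = 0.00011 and 0.00079, adjusted over 20 relations 0.00065 and 0.00316). It was 0.93 for *Zfp750* (rho 0.93), 0.92 for *Prdm1* (rho 0.82), 0.91 for *Ovol1* (rho 0.81), 0.89 for *Grhl3* (rho 0.85) and 0.86 for *Grhl1* (rho 0.84), with adjusted permutation p for r of up to 0.00136 and for rho of up to 0.00747. Without the 2 mice farthest from the median of the list (KO replicate 8 and WT replicate 2), r for these 6 factors was still between 0.79 and 0.90. *Cebpa* (r = 0.77, rho 0.55, adjusted permutation p = 0.00631 and 0.0987) dropped to 0.43 without those 2 mice, so that its relation rested on them, and *Gata3* (r = 0.75, rho 0.63, adjusted permutation p = 0.00385 and 0.0362) to 0.66. *Cebpb* had r = 0.47 (rho 0.33, adjusted permutation p = 0.114 and 0.344) and *Trp63* r = -0.25 (rho -0.24, adjusted permutation p = 0.522 and 0.513).

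With cytokines 7 factors passed by r. *Prdm1* had r = 0.96 (rho 0.93, adjusted permutation p = 0.00065 and 0.00153) and *Klf4* 0.91 (rho 0.89, adjusted permutation p = 0.000886 and 0.00153), followed by *Zfp750* (0.86, rho 0.84), *Ovol1* (0.80, rho 0.75), *Grhl1* (0.70, rho 0.73) and *Grhl3* (0.68, rho 0.72). Without WT replicate 1 and KO replicate 8, the 2 mice farthest from the median, these became 0.88, 0.80, 0.69, 0.61, 0.60 and 0.59. *Gata3* (r = 0.64, rho 0.50, adjusted permutation p = 0.0393 and 0.13) dropped to 0.31 and rested on those 2 mice. *Cebpa* (r = 0.09), *Cebpb* (0.08) and *Trp63* (-0.06) had adjusted permutation p of 0.844, 0.844 and 0.858. Within the 8 KO mice alone, r of the 8 factors that passed under basal conditions was between 0.80 and 0.96, with a lower rho of 0.40 (*Ovol1*) to 0.79 (*Zfp750*), and rho was 0.71 for *Klf4* and 0.69 for *Prdm1*. With cytokines r of the 7 that passed was between 0.61 (*Grhl3*) and 0.98 (*Prdm1*), with rho between 0.57 (*Gata3*) and 0.95 (*Prdm1*). The 5 WT mice are too few for an r of their own.

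**Figure D4:**
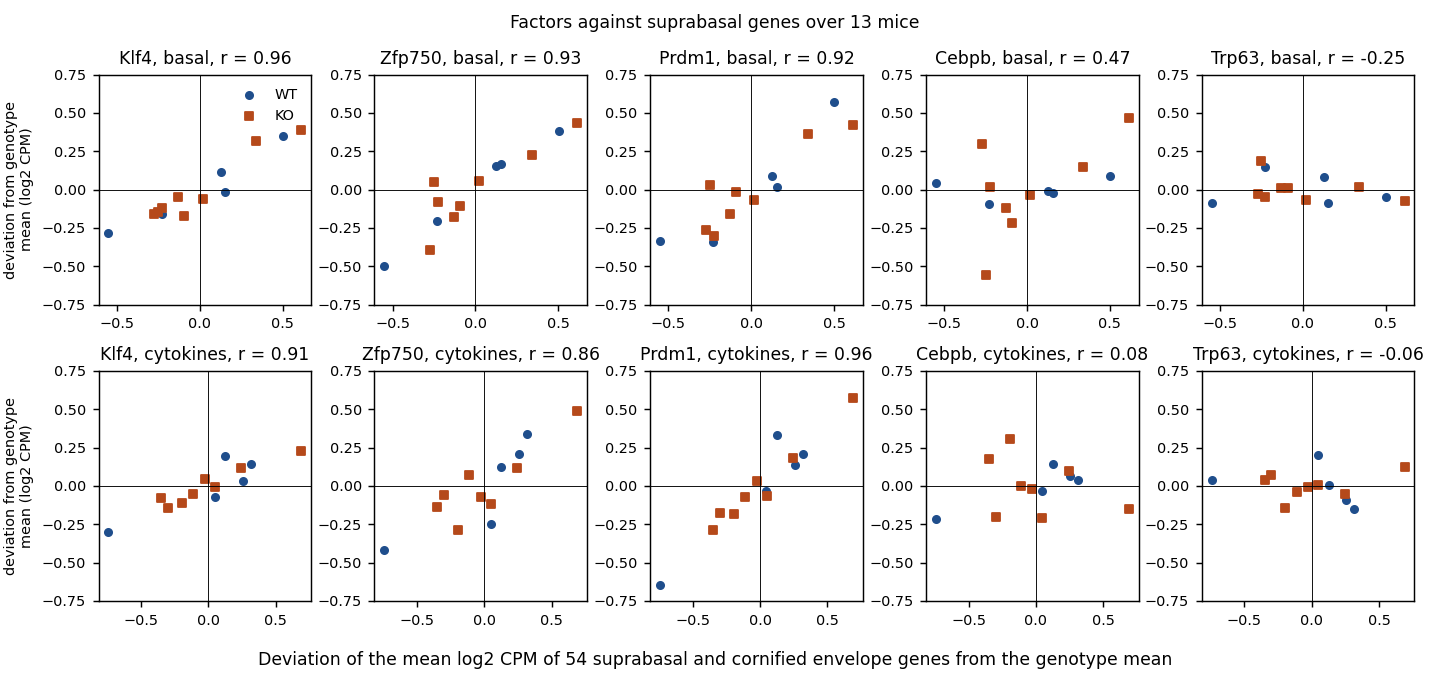
Deviation of 5 factors from the mean of their genotype (log2 CPM, y axis) against that of the mean of 54 suprabasal and cornified envelope genes (log2 CPM, x axis), basal above and with cytokines below; each point is 1 of 13 mice (circles WT, squares KO). *Klf4*, *Zfp750* and *Prdm1* follow the list with r between 0.86 and 0.96. *Cebpb* (r = 0.47 basal, 0.08 with cytokines) and *Trp63* (-0.25 and -0.06) did not pass.

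Many genes follow this list. An r at least as high as that of *Klf4* under basal conditions was found in 0.315% of 16839 genes outside the list, and as high as that of *Prdm1* with cytokines in 0.19%. For *Grhl3* the shares were 1.24% and 7.28%, and for *Gata3* 4.23% and 8.75%. Summed melanocyte markers also moved with the list (r = 0.74, rho 0.79 under basal conditions; r = 0.83, rho 0.78 with cytokines, 0.52 without 2 mice), with an adjusted permutation p of 0.0266 for r in both conditions over 10 such relations. The summed immune cell markers, mostly *Cd68* and *Lyz2*, did so too (r = 0.63 and 0.88, adjusted permutation p = 0.0515 and 0.0002). *Ptprc*, of the same list, was at 0.116 CPM or less and at 0 in 16 of 26 libraries. The summed basal layer genes (r = -0.29 and -0.03), the fibroblast markers (0.45 and 0.35) and the total count (-0.36 and -0.05) did not pass. The part of other cell types in the relation was not tested.

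The genes of the suprabasal list had wider changes than most of the 10 factors. With cytokines 11 of its 54 genes rose and 20 fell past both thresholds in WT cells, and 11 rose and 25 fell in KO cells (median log2 change -0.37 and -0.53). Over all genes 8.65% rose and 5.26% fell past both thresholds in WT cells, and 6.33% and 4.55% in KO cells. The envelope genes *Lce3a*, *Lce3b*, *Sprr2e* and *Sprr2f* led the rises (*Sprr2e* from 9.72 to 576 CPM in WT cells) and the spinous keratins *Krt1* and *Krt10* the falls (*Krt10* from 914 to 28.7 CPM in WT cells). Between genotypes, 8 of the 54 were called lower and 0 higher in basal KO cells (median log2 difference -0.35). With cytokines 15 were called lower and 0 higher (median -0.58). Over all genes 2.68% and 0.704% were called in either direction. By adjusted p alone 15 fell and 0 rose without cytokines, where 13.6% of all genes passed. With cytokines 16 fell and 0 rose, where 2.84% passed. *Krt1* was called lower in both conditions (log2 -0.75, SE 0.18, and -1.42, SE 0.19). So was the desmosomal cadherin gene *Dsc1* (-0.74, SE 0.22, and -1.02, SE 0.23). These are larger than the genotype differences of the 10 factors, of which the widest was -0.35. The study named several of these genes from the same libraries, so their direction is no independent evidence. Of 23 basal layer genes, 0 were called higher and 1 lower at both thresholds in basal KO cells. The 1 was the Wnt and BMP antagonist gene *Sostdc1* (log2 -0.72, SE 0.21, adjusted p = 0.0287). By adjusted p alone 6 of the 23 were higher and 3 lower, where 13.6% of all genes passed. With cytokines 4 were higher and 0 lower, where 2.84% passed.

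Among 58 other transcription factors of the epidermis, 54 were tested. With cytokines 9 rose and 9 fell past both thresholds in WT cells, and 3 rose and 8 fell in KO cells. That is 33.3% and 20.4% of the 54, against 13.9% and 10.9% of all genes. The median log2 change was 0.02 in WT and -0.04 in KO cells. The largest rises in WT cells were those of the ETS factor *Ehf* (log2 1.40, SE 0.09, 57.9 to 153 CPM) and of *Cebpd* (log2 1.36, SE 0.13, 17.5 to 44.9 CPM), the C/EBP relative of *Cebpb*, followed by *Sox9* (log2 0.91, SE 0.10) and the ETS factor *Elf3* (log2 0.70, SE 0.10). *Ehf* and *Cebpd* also led in KO cells (log2 1.24, SE 0.07, and 1.25, SE 0.10), with *Tfap2c* (log2 0.64, SE 0.07). Among the largest falls were those of *Id1*, an inhibitor of helix-loop-helix factors (log2 -2.67, SE 0.29, in WT and -2.78, SE 0.24, in KO cells) and *Barx2* (-1.53, SE 0.20, and -1.20, SE 0.16), then *Rora* in WT (-0.94, SE 0.16) and *Dlx5* in KO cells (-0.84, SE 0.17). All these had an adjusted p of 0.000218 or less. None of the 54 was called between genotypes or for the interaction. By adjusted p alone 15 passed under basal conditions, 3 with cytokines and 4 for the interaction. Over all genes these shares were 13.6%, 2.84% and 0.983%.

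Over the 26 libraries, the genes whose log2 level, centred on its mean, lay closest to that of *Prdm1* were *Ppif* (root mean square difference 0.129), *Nucb2* (0.14) and *Il1rn* (0.153), out of 11854 genes with a mean normalized count over 100. For *Grhl3* they were *Sult2b1* (0.13), *Tmem40* (0.149) and *Ifi202b* (0.159). *Sult2b1* encodes a sulfotransferase that makes cholesterol sulfate, a lipid of the granular layer, and *Il1rn* the interleukin-1 receptor antagonist.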

How the data were processed

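Bulk RNA was sequenced from the 26 libraries (stranded TruSeq mRNA, paired 150 bp reads on a NovaSeq). The authors checked reads with FastQC, aligned them to mm39 with STAR 2.7.10b and counted them per gene with featureCounts 2.0.6 and GENCODE; the strand setting is not given in the sources used here. The authors deposited raw counts, and log2 values of the count divided by a DESeq2 size factor plus 1, used only for an alternative. Cells of 2 wells of a mouse were pooled in the study.

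Genes with a mean normalized count over 10 (16893) entered the quasi-likelihood test of edgeR 4.0.16 under R 4.3.3 (TMM, 1 fit of 4 groups, no covariate, Benjamini-Hochberg adjustment). SE is the log2 fold change divided by the square root of F. The 95% intervals apply the normal quantile to the SE. CPM used TMM library sizes, with a prior count of 1 on the log2 scale. Relations between mice used 100000 two-sided permutations within genotype. No 2 libraries of a group agreed within sampling noise (lowest chi-square per degree of freedom 7.44). Depth per library was 42072745 to 78102858 counts, so the number of mice limits precision. Alternatives were DESeq2 size factors, DESeq2 1.42.0, limma 3.58.1 on the log2 values, other filters and thresholds, a fit of the 2 compared groups alone, a block for the mouse, and each mouse left out.

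Basal and treated libraries with the same number come from the same mouse, which pairs them. After subtraction of group means, the 2 libraries of a mouse had correlations of 0.000509 to 0.254 with a median of 0.106, and 8 of 13 mice had libraries that correlated best with each other. All 10 factors are named in every comparison. From each other list, up to 4 called genes per direction with the largest change and a mean normalized count over 100 were eligible, and for the 2 factors with the largest cytokine response the 3 genes of most similar profile. Of the genes eligible among the other transcription factors, 1 is not reported here, so that list is not complete. The factors and lists were chosen with earlier results of these data known. Exon lengths are from GRCm39 and GENCODE, a later release than that of the counts, and promoters from RefSeq (GRCm38.p6), matched exactly to GRCm39.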

Additional observations from a re-analysis of the deposited data

Results flagged for a closer look

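In 40 groups of values (10 factors in 4 groups), 3 had a library far from the others by Dixon's test, where chance alone marks about 1 in 20 groups. *Trp63* in KO basal replicate 4 was at 470 CPM, above the next library at 419 CPM. KO replicate 8 with cytokines was highest for *Zfp750*, at 97.1 CPM with the next at 75.003 CPM, and for *Prdm1*, at 154 CPM with the next at 118 CPM. The same mouse also had the highest mean of the suprabasal and cornified envelope genes among the KO mice, 6.27 log2 CPM with cytokines against a KO median of 5.51.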

How the results depend on the processing

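At both thresholds the number of factors called did not change with DESeq2 size factors, DESeq2, limma on the log2 values, no filter, filterByExpr, an adjusted p under 0.05 or only the 2 groups compared (2 with cytokines in WT, 2 in KO, 0 between genotypes and, where it could be fitted, 0 for the interaction). Without a threshold on the fold change the counts were 5 for the cytokine effect in WT, 7 in KO and 3 for the basal genotype effect. The shares of all genes were 36.8%, 35.8% and 13.6%. When 1 mouse was left out at a time, the count was between 2 and 3 for the cytokine effect in WT (3 without WT replicate 1, where *Cebpb* was added), 2 to 2 in KO and 0 to 0 for the genotype effects and the interaction. With a replicate block for the mouse, the called counts were 2, 2 and 0 for the interaction, while by adjusted p alone 8 factors passed in WT cells in place of 5. The genotype contrasts could not take the block, since each mouse has 1 genotype.

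By adjusted p alone more calls changed. Of the 2 falls with cytokines in WT cells (*Grhl1* and *Zfp750*), 1 passed with DESeq2 and 0 with limma or with only the 2 groups compared. Between genotypes, with only the 2 groups compared, 0 factors passed under basal conditions (9.27% of all genes). With cytokines 2 passed, both lower (5.13% of all genes). DESeq2 passed 1 higher and 3 lower under basal conditions (14.5% of all genes), and an adjusted p under 0.05 left 0 (9.35% of all genes). A log2 difference changed sign, with no call on either side, in 22 of the refits of single factors. The levels of the factors and their relations to the suprabasal list moved by less than 1 SD, or kept their side of the threshold, with DESeq2 size factors. The cause of the changes was not tested.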
